A study of Homo sapiens with 18 samples.

Results

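LNCaP-abl cells and their parent line LNCaP were compared after TRIM24 had been knocked down in both, to see which differences between the lines remain when TRIM24 is low. The comparison rests on 6 of the 18 arrays of the study, which the labels identify by cell line, siRNA and treatment: 3 arrays of LNCaP-abl with TRIM24 siRNA (siTRIM24) and vehicle, and 3 arrays of LNCaP with siTRIM24 and vehicle. A further 6 arrays, 3 of LNCaP-abl and 3 of LNCaP with a control siRNA (siControl) and vehicle, gave the same line difference with TRIM24 present. The 6 arrays of LNCaP treated with 10 nM dihydrotestosterone entered the fit for its estimate of the spread and are not described. In all groups the siRNA acted for 48 h and the cells were kept in medium whose serum had been stripped of steroids with charcoal and dextran; vehicle was ethanol, given for 24 h. Neither the siRNA sequences nor the origin of the LNCaP-abl stock is given in the sources used here. LNCaP-abl is represented by 1 derived line, so what differs with loss of androgen dependence and what differs between these 2 stocks cannot be told apart.

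LNCaP is a human prostate adenocarcinoma line, grown from a lymph node metastasis, whose growth depends on androgen. LNCaP-abl was derived from it by long culture without androgen and proliferates in hormone-poor medium. TRIM24, a member of the TIF1 family, carries a RING ubiquitin ligase domain and a PHD-bromodomain pair that reads histone marks, and it acts as a cofactor of nuclear receptors. A line difference below is the mean log2 expression value in LNCaP-abl minus that in LNCaP, so a positive value is higher in LNCaP-abl and 1 log2 unit is a doubling.

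Array medians lay between 5.83 and 5.93, and within a group the arrays had pairwise correlations of 0.996 to 0.998. With 3 arrays in each group, their number sets the precision. The labels do not name separate cultures, and the p-values may therefore reflect technical spread alone. Both lines carried the luminal markers of their label: 9 of 11 measured luminal markers lay above the low-value filter of 5.88 in LNCaP-abl with siTRIM24, and 10 of 11 in LNCaP with siTRIM24. Of 4 leukocyte markers, 0 lay above it in LNCaP-abl and 1 in LNCaP, and the leukocyte gene PTPRC averaged 3.48 in LNCaP-abl and 3.43 in LNCaP. In lysates of whole cultures, fewer cells of a type and less RNA per cell cannot be told apart. The 3' over 5' log2 signal of the GAPDH control probe sets, a sign of RNA integrity, was 0.64 ± 0.02 in LNCaP-abl and 0.59 ± 0.02 in LNCaP with siTRIM24, and 0.56 ± 0.02 in LNCaP-abl and 0.52 ± 0.03 in LNCaP with siControl (SD, n = 3).

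TRIM24 itself was low in both lines, and slightly lower in LNCaP-abl. With siTRIM24 its brightest probe set read 7.45, 7.55 and 7.35 in LNCaP-abl, against 7.73, 7.70 and 7.69 in LNCaP. With siControl it read 9.44, 9.60 and 9.55 in LNCaP-abl, against 9.69, 9.71 and 9.71 in LNCaP. The line difference was -0.26 ± 0.05 with siTRIM24 (SE, limma adjusted p = 0.000532) and -0.17 with siControl, and the change between them, -0.09, did not pass (adjusted p = 0.425). With the mean of all 4 TRIM24 probe sets the line difference after knockdown was -0.07 (adjusted p = 0.155). The next brightest probe set was at -0.18. The remaining ones, at 0.12 and 0.04, had means under 5.88 in both knocked-down lines. Of the 4 TIF1 genes 1 was higher and 2, TRIM24 included, were lower, where 29.6% of all tested genes were higher and 40.2% lower. They differed little between the knocked-down lines: TRIM28, the corepressor KAP1, was at -0.20 and TRIM33, a partner in SMAD signalling, at 0.20. The call for TRIM28 was lost with a covariate for the GAPDH signal (-0.15, adjusted p = 0.0611) and that for TRIM33 with its most variable probe set (0.10, adjusted p = 0.424).

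Most genes still differed between the lines when TRIM24 was low. Of 13607 genes tested, 9495 (69.8%) differed at an adjusted p under 0.05, of which 4024 (29.6%) were higher and 5471 (40.2%) lower in LNCaP-abl. The differences were mostly small, with a median size of 0.39 among called genes, and 1308 genes (9.61%) were called with a difference of at least 1 log2 unit, 516 higher and 792 lower. With siControl, measured on other arrays, 8675 genes (63.8%) differed. The lines differed in the same direction with either siRNA for 7040 genes, which is 74.1% of the calls with siTRIM24 and 81.2% of those with siControl. Of the 1308 genes at 1 log2 unit or more, 1306 were called in the same direction with siControl. Across genes, which are not independent replicates, the differences with siTRIM24 and siControl correlated at 0.949.

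Knockdown nonetheless altered the size of many line differences. The change, the line difference with siTRIM24 minus that with siControl, passed for 3884 genes (28.5%), 1170 upward (8.6%) and 2714 downward (19.9%), and 105 of the 109 genes that changed by at least 1 log2 unit changed downward. These counts test the interaction of knockdown with line and use the same arrays as both line differences. The downward share over all genes depended on the scaling. After quantile normalization 1826 of 3469 called changes were downward, and after median centring 3406 of 4163. In 255 genes the lines differed in opposite directions with siTRIM24 and siControl, 192 of them lower in LNCaP-abl with siTRIM24 and higher with siControl. In the scatter plot of both line differences most genes lie along the diagonal, while genes of mitosis and DNA replication lie below it.

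**Figure D1:**
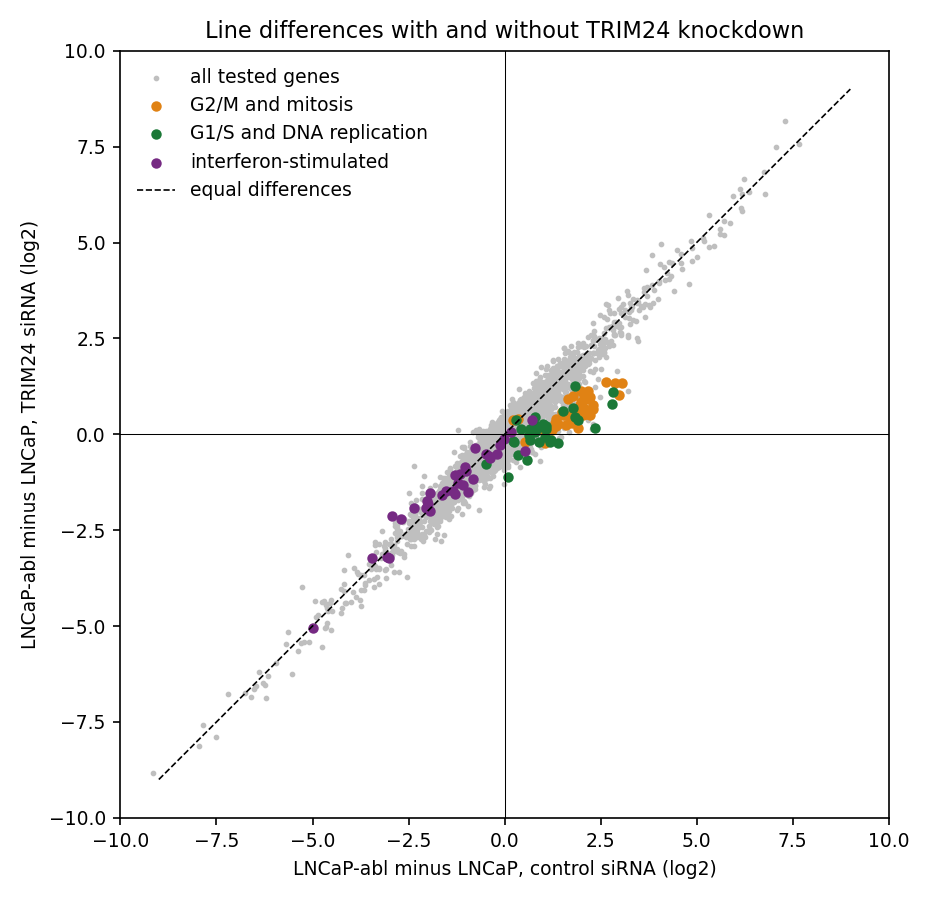
Each point is 1 of 13607 tested genes, with the line difference (LNCaP-abl minus LNCaP, log2) with TRIM24 siRNA on the vertical axis and with control siRNA on the horizontal axis; coloured points mark the members of 3 gene lists and the dashed line marks equal differences. The points follow the dashed line, whereas 37 of 39 mitosis genes and 27 of 32 replication genes had a smaller difference with TRIM24 siRNA.

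A difference of at least 4 log2 units was measured for 96 genes, 41 higher and 55 lower in LNCaP-abl with siTRIM24, and all 96 differed in the same direction with siControl. In 69 of them the mean of the lower line lay under 5.88, where array values are compressed, so those differences can be too small. The change with knockdown was called for 29 of the 96.

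Of the 12 genes furthest higher in LNCaP-abl, FLRT3 came first. FLRT3, a membrane protein that binds fibroblast growth factor receptors and guidance receptors, read 11.90, 11.86 and 11.92 in LNCaP-abl, against 3.91, 3.64 and 3.64 in LNCaP, a line difference of 8.16 ± 0.10 (SE, limma adjusted p = 9.6e-19). CD200, a surface glycoprotein whose receptor restrains myeloid cells, read 11.96, 11.95 and 11.92 in LNCaP-abl, against 4.33, 4.31 and 4.46 in LNCaP. DOCK10, an activator of small GTPases, read 9.97, 10.05 and 10.01 in LNCaP-abl, against 3.22, 3.07 and 3.17 in LNCaP. In each of these the arrays of the 2 lines lay more than 6 log2 units apart, and the differences for CD200 and DOCK10 were 7.58 and 6.85 with siTRIM24 and 7.66 and 6.76 with siControl. NR3C1, the glucocorticoid receptor, read 12.18, 12.12 and 12.18 in LNCaP-abl, against 5.84, 5.79 and 6.09 in LNCaP. Its difference was 6.26 ± 0.09 with siTRIM24 and 6.79 with siControl, a change of -0.53 (adjusted p = 0.0066). The other 4 bright probe sets of NR3C1 gave line differences of 3.11 to 7.04 with siTRIM24 but changes of -0.47 to 0.43, so the direction of its change depends on the probe set. BMP2, a bone morphogenetic protein, read 10.54, 10.35 and 10.39 in LNCaP-abl, against 4.14, 4.10 and 4.23 in LNCaP. OR51E2, an olfactory receptor known as a prostate-specific G protein-coupled receptor, read 13.02, 13.00 and 12.98 in LNCaP-abl, against 6.61, 6.55 and 6.67 in LNCaP.

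The other genes of this end were TMC5, a transmembrane channel-like protein, at 7.50, CTNNA3, an alpha-catenin that ties cadherins to actin, at 6.66, PAGE1, a cancer-testis antigen encoded on the X chromosome, at 6.31, UG0898H09 at 6.21, the lysosomal galactosylceramidase GALC at 5.90 and the Frizzled ligand norrin, NDP, at 5.83. With the mean of each gene's probe sets, TMC5 was at 4.27, DOCK10 at 4.13, CTNNA3 at 3.63 and GALC at 3.20, all still called. CD200, DOCK10, PAGE1, BMP2, OR51E2 and TMC5 were picked as large differences whose change with knockdown was not called. The 95% intervals of their changes reached from -0.38 for PAGE1 to 0.82 for TMC5.

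Of the 12 genes furthest lower in LNCaP-abl, TMEFF2 came first. TMEFF2, a transmembrane protein with follistatin-like domains that is abundant in prostate and brain, read 4.09, 4.16 and 4.06 in LNCaP-abl, against 12.95, 12.95 and 12.93 in LNCaP, a line difference of -8.84 ± 0.06 (SE, limma adjusted p = 1.22e-21). ETV1, an ETS transcription factor whose locus is rearranged in LNCaP, read 2.75, 3.22 and 3.25 in LNCaP-abl, against 11.21, 11.22 and 11.19 in LNCaP. SEMA3C, a secreted semaphorin, read 3.95, 4.09 and 4.02 in LNCaP-abl, against 11.94, 11.93 and 11.86 in LNCaP. No array of LNCaP-abl reached the filter value for these 3 genes. PEG3, a paternally expressed imprinted zinc finger gene, read 4.02, 3.35 and 3.81 in LNCaP-abl, against 11.30, 11.30 and 11.28 in LNCaP. THBS1, the matrix protein thrombospondin 1, read 3.48, 3.14 and 2.73 in LNCaP-abl, against 9.97, 9.88 and 9.81 in LNCaP. LDHB, the lactate dehydrogenase subunit that favours the conversion of lactate to pyruvate, read 6.62, 6.20 and 6.50 in LNCaP-abl, against 12.91, 12.93 and 12.93 in LNCaP. LDHB thus stayed just above the filter in LNCaP-abl, with a difference of -6.48 ± 0.12 with siTRIM24 and -6.30 with siControl.

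The rest of this end held PDE10A, a cyclic nucleotide phosphodiesterase, at -6.88, MAP2, a microtubule-associated protein of neurons, at -6.85, the desmosomal cadherin DSC3 at -6.74, the cholinesterase BCHE at -6.63, the ephrin receptor EPHA7 at -6.57 and the ephrin EFNB2 at -6.53. The size of some of these differences depended on the probe sets used. With the mean of all probe sets, dim ones included, ETV1 was at -2.56, THBS1 at -2.15, PDE10A at -3.43 and TMEFF2 at -4.13, each still called. The plot of single arrays shows the wide separation of the lines for these 24 genes.

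**Figure D2:**
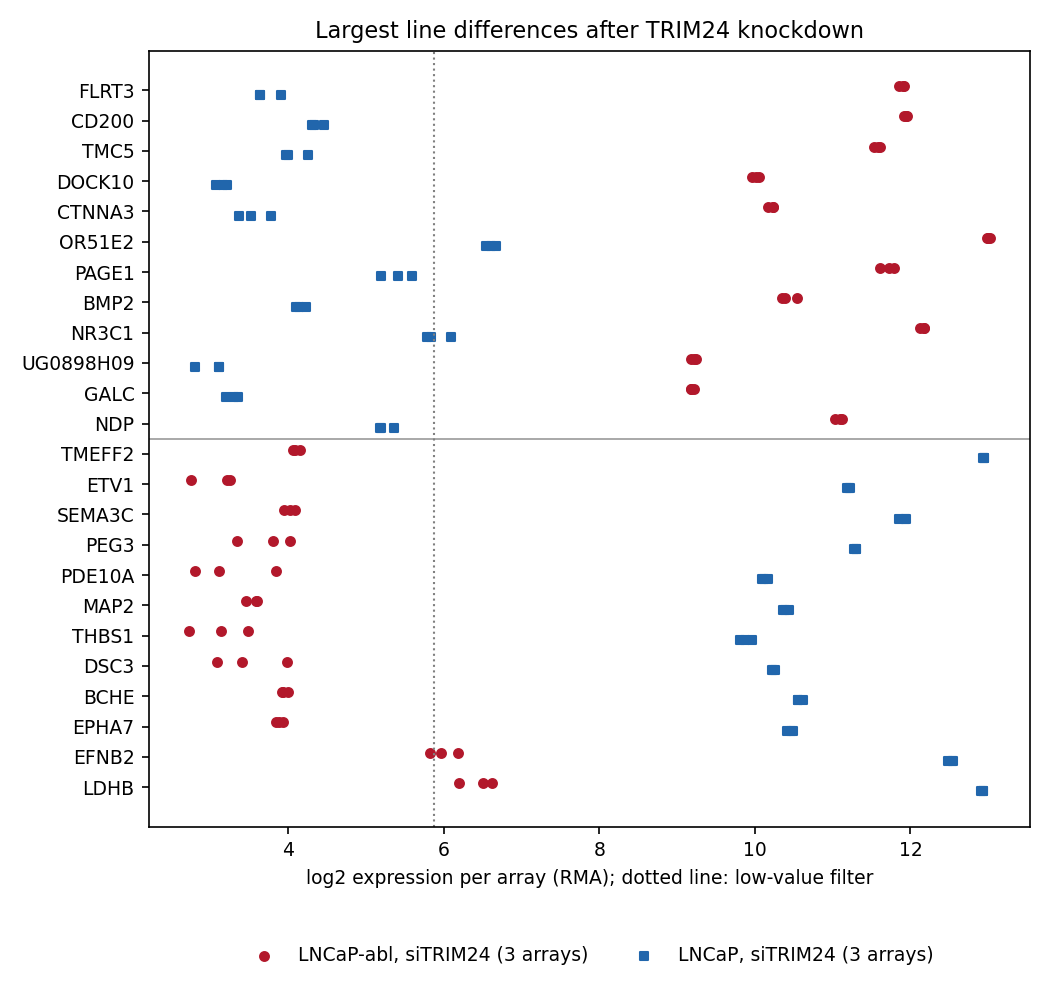
Log2 expression per array of the 12 genes most higher and the 12 most lower in LNCaP-abl with TRIM24 siRNA, with 3 arrays of LNCaP-abl as circles and 3 of LNCaP as squares; the dotted line is the low-value filter at 5.88. The 24 genes were picked by size among called genes whose arrays do not overlap between the lines. Such arrays were found for 10089 of 13607 tested genes (74.1%). FLRT3 (8.16) and TMEFF2 (-8.84) span the widest differences.

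Genes of mitosis kept a small excess in LNCaP-abl when TRIM24 was low. Of 39 tested members of a list of 40 G2/M and mitosis genes, 36 were higher and 1 was lower with siTRIM24, where 29.6% of all tested genes were higher. The median line difference was 0.52, against -0.03 over all genes tested. With siControl all 39 were higher and the median was 1.89. The change with knockdown was downward for 37 of the 39 and upward for none, with a median of -1.20, where 19.9% of all tested genes changed downward. For 16 of the 39 the mean of the lower line with siTRIM24 was under 5.88, where differences can be too small. The GAPDH 3' over 5' signal also moved with the line; with it as a covariate 33 were higher and 37 changed downward.

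HMMR, a receptor for hyaluronan that also acts at the spindle, was the member furthest apart with siTRIM24. It read 8.21, 8.25 and 8.35 in LNCaP-abl, against 6.96, 6.88 and 6.89 in LNCaP with siTRIM24, and 10.00, 9.89 and 10.05 in LNCaP-abl, against 7.41, 7.40 and 7.20 in LNCaP with siControl. Its difference was 1.36 ± 0.07 with siTRIM24 and 2.65 with siControl. KNL1, a kinetochore scaffold, was at 1.35 with siTRIM24 and 3.06 with siControl, and ANLN, which organises the cytokinetic ring, at 1.34 and 2.87. SPC25, a subunit of the NDC80 kinetochore complex, read 5.12, 5.19 and 5.42 in LNCaP-abl, against 4.48, 4.03 and 4.15 in LNCaP with siTRIM24, and 7.45, 7.65 and 7.48 in LNCaP-abl, against 4.57, 4.73 and 4.32 in LNCaP with siControl. The 3 knocked-down LNCaP-abl arrays thus lay above all LNCaP arrays but more than 2 log2 units below the LNCaP-abl control arrays. The change was -1.96 ± 0.20 (SE, adjusted p = 4.99e-06).

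For other mitotic genes the lines came close together. TOP2A, the topoisomerase that untangles replicated chromosomes, read 6.93, 6.67 and 6.83 in LNCaP-abl, against 6.68, 6.72 and 6.51 in LNCaP with siTRIM24, so the arrays overlapped. With siControl it read 8.73, 8.87 and 8.92 in LNCaP-abl, against 6.96, 7.0 and 6.79 in LNCaP. Its difference with siTRIM24, 0.17 (adjusted p = 0.048), did not pass under several settings, among them median centring (0.12, adjusted p = 0.191), the replicate number as a block (adjusted p = 0.0575) and the omission of the first LNCaP-abl array (0.11, adjusted p = 0.21) or the third LNCaP array (0.11, adjusted p = 0.226). The call was also lost without the third LNCaP-abl array (0.16, adjusted p = 0.106), the first LNCaP array (0.19, adjusted p = 0.0552), the second LNCaP-abl siControl array (adjusted p = 0.0548) or the first LNCaP siControl array (adjusted p = 0.0546). The change of TOP2A was -1.75 ± 0.10 (SE, adjusted p = 1.99e-08). UBE2C, the ubiquitin-conjugating enzyme of mitotic exit, was at 0.29 with siTRIM24 and 1.75 with siControl, and AURKA, a spindle kinase, at 0.51 and 1.56. CDK1, the kinase that drives entry into mitosis, read 8.80, 8.82 and 8.73 in LNCaP-abl, against 9.04, 8.98 and 9.04 in LNCaP with siTRIM24, and 10.25, 10.32 and 10.30 in LNCaP-abl, against 9.30, 9.26 and 9.18 in LNCaP with siControl. It was the 1 member lower in LNCaP-abl with siTRIM24 (-0.24 ± 0.05), a call that its other probe sets did not share (most variable probe set -0.05, adjusted p = 0.371), while the change of -1.28 passed. FOXM1, a transcription factor of mitotic genes, was at -0.20 with siTRIM24 (adjusted p = 0.0506, called under some settings, such as median centring at -0.25, adjusted p = 0.0165) and 0.53 with siControl, and CDCA8, a subunit of the chromosomal passenger complex, at 0.04 (adjusted p = 0.632) and 1.04. PLK1 (a mitotic kinase) and CENPA (the centromeric histone) were the members whose change was not called, at 0.36 and 0.40 with siTRIM24 and 0.21 and 0.35 with siControl; the call of CENPA was lost with the GAPDH covariate (0.25, adjusted p = 0.125).

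Genes of DNA replication were called in both directions with siTRIM24. Of 32 tested members of a list of 35, 16 were higher and 11 lower in LNCaP-abl with siTRIM24, a median of 0.15, where 29.6% of all tested genes were higher and 40.2% lower. With siControl 30 were higher and 1 was lower, a median of 0.94, where 29.1% of all tested genes were higher and 34.6% lower. The change was downward for 31 of 32, with a median of -0.87, where 19.9% of all tested genes changed downward. With the GAPDH covariate 12 were higher, 7 lower and 31 changed downward. RRM2, the regulated subunit of ribonucleotide reductase, read 8.28, 8.11 and 8.34 in LNCaP-abl, against 7.19, 7.11 and 7.13 in LNCaP with siTRIM24, and stayed 1.10 ± 0.06 higher (2.83 with siControl). CCNE2, the cyclin E2 gene, was at 1.27 with siTRIM24 and 1.82 with siControl, while its relative CCNE1 was lower in LNCaP-abl with either siRNA, at -0.78 and -0.48 (CCNE1 -0.26 as the mean of its probe sets).

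Several members of the replicative helicase and the clamp loader were lower in LNCaP-abl with siTRIM24. MCM5, a helicase subunit, read 6.66, 6.76 and 6.78 in LNCaP-abl, against 6.94, 6.98 and 6.89 in LNCaP with siTRIM24. With siControl it read 7.99, 8.07 and 8.04 in LNCaP-abl, against 6.78, 6.85 and 6.91 in LNCaP. The LNCaP-abl arrays were the lower ones with siTRIM24 and the higher ones with siControl, with differences of -0.20 ± 0.06 and 1.19 and a change of -1.39 ± 0.08 (SE, adjusted p = 1.28e-08). The other bright probe set of MCM5 was at -0.08 with siTRIM24 and changed by -0.56. MCM4, another subunit, was at -0.68 with siTRIM24 and 0.58 with siControl; 1 of its 3 further bright probe sets was at 0.14, their mean was -0.32, and the changes of the 3 ranged from -1.23 to 0.11. RFC4, a subunit of the clamp loader, was at -0.53 and 0.34, and FEN1, the flap endonuclease, at -0.16 and 1.21. The call of FEN1 with siTRIM24 was lost after quantile normalization (-0.05, adjusted p = 0.317) and with the GAPDH covariate (-0.14, adjusted p = 0.082). RFC3, also of the clamp loader, read 6.68, 6.66 and 6.75 in LNCaP-abl, against 7.92, 7.69 and 7.80 in LNCaP with siTRIM24, while with siControl its arrays overlapped (0.08, adjusted p = 0.291). RFC3 was at -0.65 with siTRIM24 as the mean of its probe sets. MCM10, an initiation factor, was at 0.17 with siTRIM24 (adjusted p = 0.366) and 2.36 with siControl. With siTRIM24 its means, 4.47 in LNCaP-abl and 4.29 in LNCaP, lay under the filter of 5.88, where differences are compressed. CDC6, which loads the helicase, was at 0.38 and 1.90, the first lost with the GAPDH covariate (0.31, adjusted p = 0.0598) and at 0.86 with its most variable probe set. E2F1, a transcription factor of S-phase genes, was at 0.37 and 0.29 (0.23 with siTRIM24 as the mean of its probe sets), and it was the 1 tested member of the list with no call for the change.

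The most negative changes, chosen by size among called genes that passed the filter, included 6 genes beside MCM10 and SPC25. A gene can pass the filter through 1 group. Among the vehicle arrays SPC25 exceeded it only in LNCaP-abl with siControl, so the filter favours large downward changes among dim genes. ZNF367, a zinc finger gene, changed by -2.13, SHCBP1, a midbody protein, by -2.09, DEPDC1B by -2.03, DTL, which targets replication proteins for degradation, by -2.01, CEP55, which acts in the final separation of daughter cells, by -1.80 and KIF14, a kinesin of cytokinesis, by -1.75. With siTRIM24 the means of ZNF367 (4.87 and 4.73), DEPDC1B (4.84 and 4.58), CEP55 (5.81 and 5.45) and KIF14 (5.75 and 5.57) lay under the filter of 5.88 in both LNCaP-abl and LNCaP, and those of SHCBP1 (5.65) and DTL (5.13) did so in LNCaP, so the sizes of these differences and changes are uncertain. With siTRIM24 SHCBP1 was still 1.13 higher and DTL 0.78 higher in LNCaP-abl. ZNF367 was at 0.13 (adjusted p = 0.379) and KIF14 at 0.19 (adjusted p = 0.38), or 0.41 (adjusted p = 0.0203) with its most variable probe set, while DEPDC1B was at 0.26 and CEP55 at 0.36, calls that were lost without some single arrays, namely for DEPDC1B the third of LNCaP-abl (0.20, adjusted p = 0.0883) or the second of LNCaP (0.22, adjusted p = 0.075), and for CEP55 the first of LNCaP-abl (0.32, adjusted p = 0.0588) or the first (0.28, adjusted p = 0.0804) or second (0.29, adjusted p = 0.0722) of LNCaP. The call of DEPDC1B was also lost with the GAPDH covariate (0.21, adjusted p = 0.16) and after quantile normalization (0.19, adjusted p = 0.0753). Averaged over its probe sets, DTL was at 0.51.

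**Figure D3:**
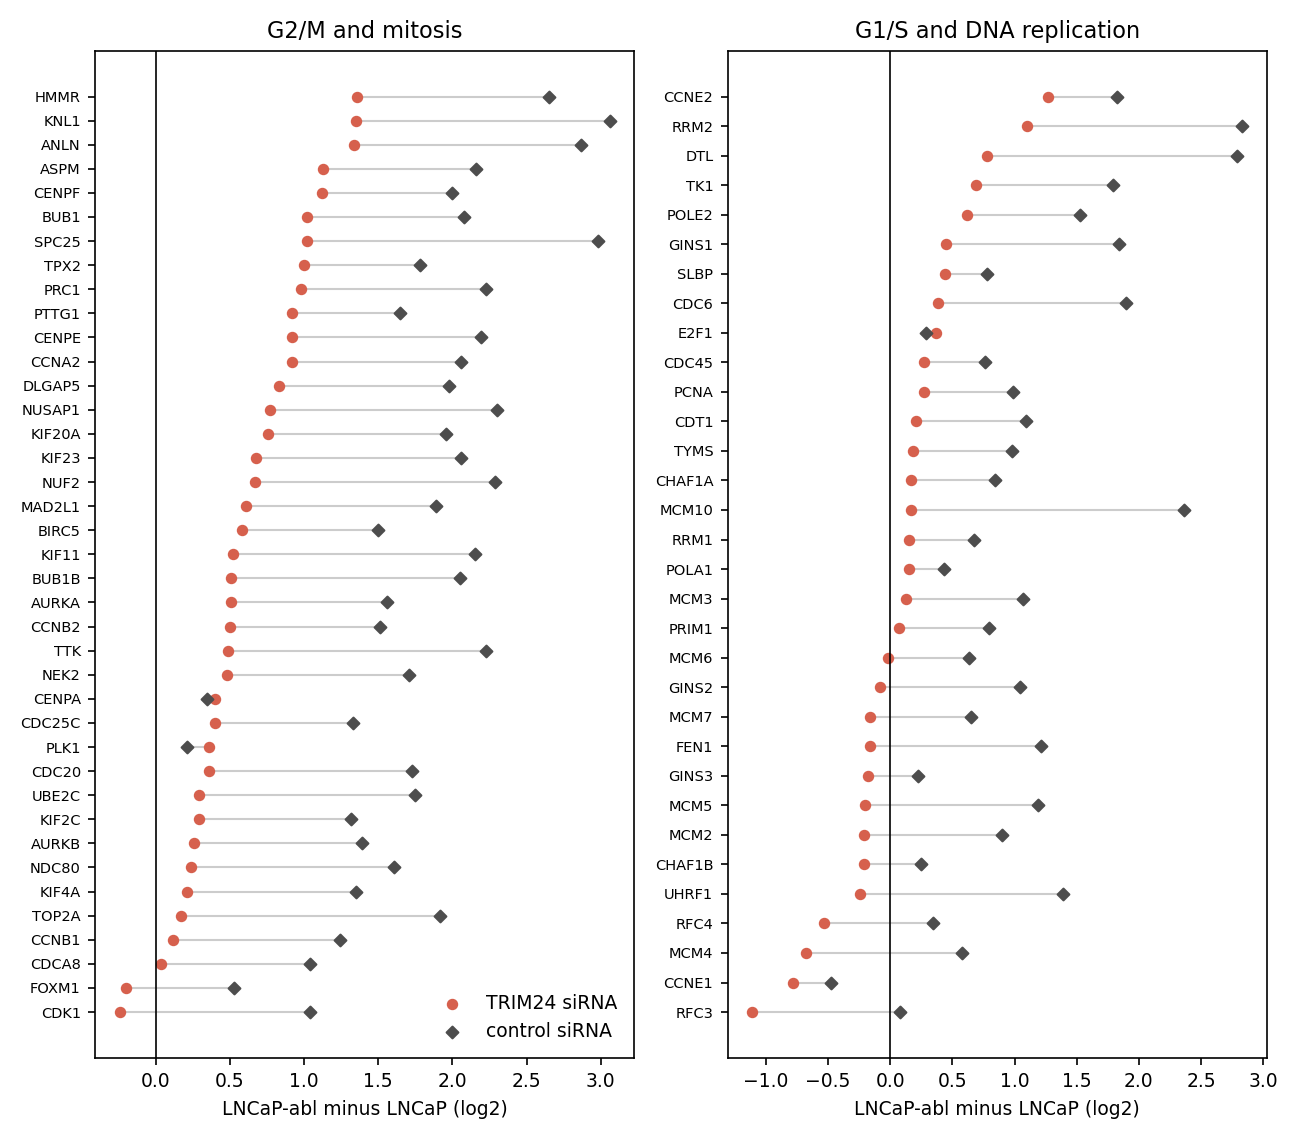
Line difference (LNCaP-abl minus LNCaP, log2, horizontal axis) of each tested gene of 2 lists, G2/M and mitosis on the left and G1/S and DNA replication on the right, with TRIM24 siRNA as circles and control siRNA as diamonds. The circles lie to the left of the diamonds for all but E2F1, CENPA and PLK1, and 36 of 39 mitosis genes were still called higher in LNCaP-abl with TRIM24 siRNA, against 16 of 32 replication genes.

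Promoters of most listed mitosis genes held a short motif. The cell cycle homology region (CHR), searched as TTTGAA or TTCGAA on both strands, is bound by the complexes that repress mitotic genes outside division and activate them before it. In RefSeq windows from 250 bases before to 50 after the gene start (GRCh38.p14), 24 of 32 mitosis genes with a window held it (75%), against 2 of 29 replication genes (6.9%), 15.3% of tested genes and 19.5% of all 27195 genes with a window. The CCAAT box, a 5-base motif bound by NF-Y and also searched on both strands, was in 81.2% of mitosis and 62.1% of replication windows, against 39.7% of all windows. A match describes the letters of the window and was not tested for binding. The shares describe the lists, and a link of the motif to the change with knockdown was not tested. Windows of 3 mitosis genes are shown 5′ to 3′ with the CHR letters in capitals, for 3 of the genes that hold it and changed downward: SPC25 (chr2:168890381-168890680, minus strand), TOP2A (chr17:40417847-40418146, minus strand) and KIF11 (chr10:92592880-92593179, plus strand), a spindle motor at 0.52 with siTRIM24 and 2.15 with siControl.
SPC25: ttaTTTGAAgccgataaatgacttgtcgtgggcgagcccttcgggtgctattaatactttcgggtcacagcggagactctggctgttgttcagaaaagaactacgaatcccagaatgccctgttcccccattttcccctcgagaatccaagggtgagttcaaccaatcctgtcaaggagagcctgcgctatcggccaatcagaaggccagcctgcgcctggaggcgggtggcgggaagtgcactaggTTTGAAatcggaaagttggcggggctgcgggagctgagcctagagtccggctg
TOP2A: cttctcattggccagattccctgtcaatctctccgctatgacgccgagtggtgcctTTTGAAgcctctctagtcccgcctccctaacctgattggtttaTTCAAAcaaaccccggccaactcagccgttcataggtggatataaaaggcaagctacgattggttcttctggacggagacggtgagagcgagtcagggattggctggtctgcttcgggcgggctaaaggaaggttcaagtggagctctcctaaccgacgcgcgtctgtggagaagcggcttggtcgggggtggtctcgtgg
KIF11: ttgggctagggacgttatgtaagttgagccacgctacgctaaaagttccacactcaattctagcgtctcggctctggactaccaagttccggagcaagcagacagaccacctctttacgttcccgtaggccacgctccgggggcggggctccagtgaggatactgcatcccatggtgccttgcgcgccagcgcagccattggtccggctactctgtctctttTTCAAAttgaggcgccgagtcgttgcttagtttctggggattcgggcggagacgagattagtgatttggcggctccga
SPC25 and TOP2A held 2 matches each and KIF11 held 1, the nearest to the start at position -3 in SPC25, -151 in TOP2A and -28 in KIF11.

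Interferon-stimulated genes stayed lower in LNCaP-abl when TRIM24 was low. These genes encode antiviral effectors and sensors, and their common activator binds the interferon-stimulated response element of their promoters. Of 34 tested members of a list of 38, 32 were lower and 1 was higher with siTRIM24, with a median of -1.41, where 40.2% of all tested genes were lower. With siControl 30 were lower and 2 higher, with a median of -1.25. The change passed upward for 7 and downward for 8 members, with a median of -0.06, where 8.6% of all tested genes changed upward and 19.9% downward. With the GAPDH covariate 31 were lower.

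SAMD9, an antiviral and growth-restraining factor, differed most. It read 3.60, 4.14 and 3.75 in LNCaP-abl, against 8.91, 8.86 and 8.85 in LNCaP with siTRIM24, and 3.29, 3.89 and 3.83 in LNCaP-abl, against 8.69, 8.63 and 8.66 in LNCaP with siControl. The lines were as far apart with either siRNA, at -5.04 ± 0.14 and -4.99, and its LNCaP-abl arrays all lay under the filter. IFI44, an interferon-induced cytoplasmic protein, read 6.51, 6.22 and 6.20 in LNCaP-abl, against 9.52, 9.57 and 9.50 in LNCaP with siTRIM24. IFI27, an interferon-induced membrane protein of mitochondria, read 6.31, 5.88 and 6.11 in LNCaP-abl, against 9.33, 9.30 and 9.37 in LNCaP with siTRIM24. Both were at -3.23 with siTRIM24, and at -3.01 (IFI44) and -3.44 (IFI27) with siControl.

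ISG15, a ubiquitin-like modifier, read 11.76, 11.67 and 11.77 in LNCaP-abl, against 13.52, 13.55 and 13.57 in LNCaP with siTRIM24, a difference of -1.81 ± 0.04. IRF9, the DNA-binding subunit of the interferon-activated factor, was at -2.01 with siTRIM24 and -1.93 with siControl, and RIGI, the sensor of viral RNA, at -1.92 and -2.04. IFIT1, which binds foreign RNA, was at -1.59 and -1.62. The gap narrowed with knockdown for IFITM1, a membrane protein that blocks viral entry, at -2.14 with siTRIM24 and -2.92 with siControl (change 0.78, adjusted p = 1.57e-06), for IFI6, at -2.20 and -2.69, and for OAS1, a synthase of the 2-5A antiviral messenger, at -1.92 and -2.37. It widened for IFIT2, at -1.33 with siTRIM24 and -1.09 with siControl (change -0.24, adjusted p = 0.0282). HERC5, the ligase that attaches ISG15, read 9.45, 9.35 and 9.46 in LNCaP-abl, against 9.84, 9.83 and 9.90 in LNCaP with siTRIM24, but 9.37, 9.43 and 9.42 in LNCaP-abl, against 8.88, 8.93 and 8.84 in LNCaP with siControl. HERC5 was thus lower in LNCaP-abl with siTRIM24 (-0.43) and higher with siControl (0.52), while its LNCaP-abl arrays read nearly the same with either siRNA. IFIT5 was the member that stayed higher in LNCaP-abl (0.36 with siTRIM24 and 0.72 with siControl), and MX1, an antiviral GTPase, lay near the filter in both lines and was not called (0.07, adjusted p = 0.482; with the GAPDH covariate 0.25, adjusted p = 0.0315).

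**Figure D4:**
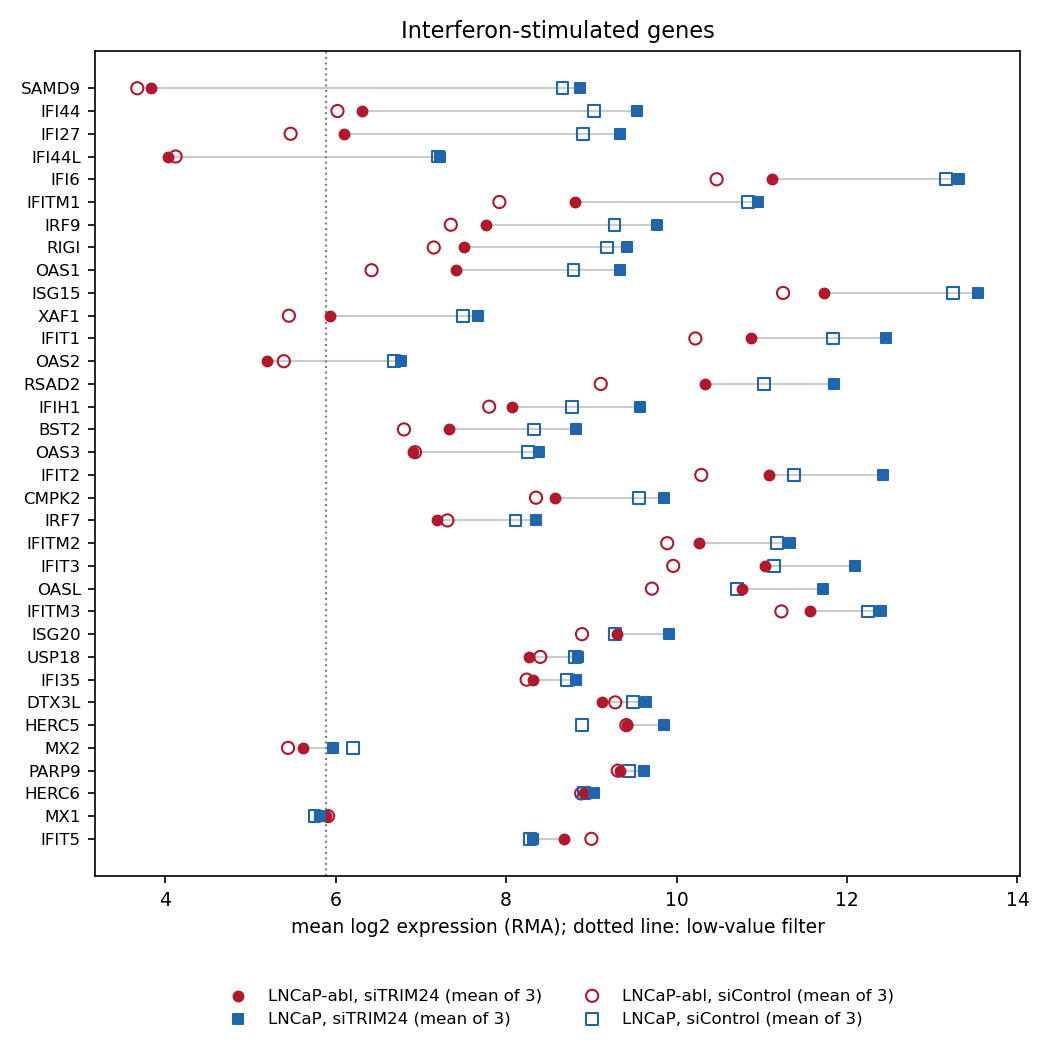
Mean log2 expression of the 34 tested interferon-stimulated genes (rows) in LNCaP-abl (circles) and LNCaP (squares), filled with TRIM24 siRNA and open with control siRNA, 3 arrays per mean; grey lines join the means with TRIM24 siRNA and the dotted line is the low-value filter. LNCaP lies to the right for all genes but MX1 and IFIT5 with TRIM24 siRNA, from -5.04 for SAMD9 to 0.36 for IFIT5.

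The core of the interferon-stimulated response element, searched as GAAANNGAAA on both strands, was in the windows of 20 of 27 interferon genes (74.1%), against 3.66% of tested genes and 4.38% of all genes with a window. None of the mitosis or replication windows held it. Windows are shown with the match in capitals for the 3 genes furthest below LNCaP among those that hold it: SAMD9 (chr7:93117930-93118229, minus strand), IFI44 (chr1:78649539-78649838, plus strand) and IFI27 (chr14:94110486-94110785, plus strand). IFI44 and IFI27 have 2 windows each in the table, and the one shown holds the match.
SAMD9: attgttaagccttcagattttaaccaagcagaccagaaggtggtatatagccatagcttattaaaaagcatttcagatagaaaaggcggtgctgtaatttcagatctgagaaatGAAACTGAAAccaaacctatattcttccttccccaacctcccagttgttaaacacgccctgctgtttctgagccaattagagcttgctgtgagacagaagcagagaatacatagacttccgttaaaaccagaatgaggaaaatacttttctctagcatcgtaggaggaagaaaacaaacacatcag
IFI44: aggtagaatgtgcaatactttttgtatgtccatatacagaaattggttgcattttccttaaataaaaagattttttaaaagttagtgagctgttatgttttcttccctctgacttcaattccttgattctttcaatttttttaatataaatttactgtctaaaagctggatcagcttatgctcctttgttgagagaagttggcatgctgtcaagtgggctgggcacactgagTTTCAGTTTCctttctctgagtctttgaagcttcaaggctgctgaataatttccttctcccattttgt
IFI27: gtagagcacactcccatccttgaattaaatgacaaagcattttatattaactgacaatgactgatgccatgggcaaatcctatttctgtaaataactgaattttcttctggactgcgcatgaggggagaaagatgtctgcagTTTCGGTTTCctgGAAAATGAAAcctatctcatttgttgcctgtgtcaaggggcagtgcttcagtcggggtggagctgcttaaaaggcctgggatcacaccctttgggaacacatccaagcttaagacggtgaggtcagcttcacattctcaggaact
SAMD9 and IFI44 held 1 match each, at -136 and -18 from the start, and IFI27 held 2, at -108 and -95.

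For the lists from here on, the shares over all tested genes were 29.6% higher and 40.2% lower with siTRIM24 and 29.1% higher and 34.6% lower with siControl, and 8.6% changed upward and 19.9% downward. A list whose counts lie near these shares does not stand apart. Of 16 tested genes of a list of 25 cytokines, chemokines and NF-kB feedback genes, 10 were lower and 5 higher in LNCaP-abl with siTRIM24. CXCL11, a ligand of CXCR3, read 6.84, 6.71 and 6.72 in LNCaP-abl, against 9.41, 9.38 and 9.33 in LNCaP, and CXCL10, another ligand of that receptor, read 8.02, 7.65 and 7.69 in LNCaP-abl, against 9.89, 9.93 and 9.98 in LNCaP. Both gaps were wider than with siControl, at -2.62 against -2.11 for CXCL11 and -2.14 against -1.50 for CXCL10, and both changes passed. CCL5 was at -1.99 with siTRIM24 and -2.19 with siControl. NFKB1, the precursor of an NF-kB subunit, was at -1.36 with siTRIM24 and -0.85 with siControl, and CXCL8, a neutrophil chemokine, at -1.40 and -0.41. IL32, a proinflammatory cytokine, was higher and read 7.68, 8.06 and 8.03 in LNCaP-abl, against 5.69, 5.84 and 5.69 in LNCaP. Of 16 tested antigen processing genes 5 were higher and 7 lower with siTRIM24, near the 29.6% and 40.2% of all tested genes, and 3 were higher and 9 lower with siControl. The called changes, 8 in all, were upward, where 8.6% of all tested genes changed upward. The immunoproteasome subunit PSMB9 was at -1.38 and the peptide transporter TAP1 at -0.54, while HLA-C, a class I antigen-presenting molecule, was at 0.21 and the peptide trimmer ERAP1 at 0.58 (0.13 and 0.23 as means of their probe sets).

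Androgen-induced genes were lower in LNCaP-abl more often than higher, with or without TRIM24 knockdown. Of 28 tested members of a list of 34, 18 were lower and 5 higher with siTRIM24, and 16 were lower and 8 higher with siControl, with a median of -0.22 in both. Over all tested genes 40.2% were lower and 29.6% higher with siTRIM24, and 34.6% lower and 29.1% higher with siControl. KLK3, which encodes prostate-specific antigen, read 5.40, 5.80 and 5.92 in LNCaP-abl, against 8.06, 8.01 and 8.04 in LNCaP. Its difference was -2.33 ± 0.13, with further bright probe sets at -3.39 and 0.08, so the probe sets disagreed. PMEPA1, an inhibitor of TGF-beta signalling, read 6.24, 5.68 and 5.89 in LNCaP-abl, against 10.34, 10.37 and 10.34 in LNCaP (-4.41). PTGER4, a prostaglandin receptor, was at -3.73 with siTRIM24 and -2.54 with siControl (-1.83 with siTRIM24 as the mean of its probe sets), and ABCC4, an exporter of cyclic nucleotides, at -2.51 and -2.48. ELL2, an elongation factor, was at -1.79 and -1.82 (-0.83 with siTRIM24 as the mean of its probe sets). FKBP5, a cochaperone of steroid receptors, read 8.81, 8.87 and 8.68 in LNCaP-abl, against 9.23, 9.23 and 9.30 in LNCaP with siTRIM24, while with siControl the lines did not differ detectably (-0.03, adjusted p = 0.606). The change of FKBP5 was -0.44 (adjusted p = 8.49e-05). Averaged over its probe sets, FKBP5 differed by -0.26 with siTRIM24. SLC45A3, a prostate membrane transporter, was at -0.14 with siTRIM24 and -0.65 with siControl, and its smaller gap was lost after quantile normalization (-0.01, adjusted p = 0.883) and on omission of any of 3 single arrays: the first of LNCaP-abl (-0.12, adjusted p = 0.096) and the first (-0.12, adjusted p = 0.108) or second (-0.14, adjusted p = 0.0721) of LNCaP. The call of SLC45A3 was also lost with the GAPDH covariate (-0.11, adjusted p = 0.226). Against the rest, TMPRSS2, a serine protease, was at 0.63 and 0.26, and C1orf116 at 1.41 and 0.89.

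Of 14 tested androgen-repressed genes 5 were higher and 7 lower in LNCaP-abl with siTRIM24, not far from the 29.6% and 40.2% of all tested genes, and some differed by large amounts. The steroid-conjugating enzyme UGT2B17 read 13.62, 13.68 and 13.77 in LNCaP-abl, against 10.78, 10.82 and 10.78 in LNCaP, a difference of 2.90 ± 0.07 (2.30 with siControl). Its near-identical relatives UGT2B28 and UGT2B15, whose probes may bind one another's transcripts, were at 1.95 and 0.94. OPRK1, the kappa opioid receptor, was at 1.40. Lower in LNCaP-abl, besides PEG3 and BCHE, were SI, sucrase-isomaltase, at -4.67, BASP1, a membrane signalling protein, at -3.58, and the CaM kinase inhibitor gene CAMK2N1 at -1.89 (-3.07 with its most variable probe set). BASP1 was at -1.70 as the mean of its probe sets. FOLH1, prostate-specific membrane antigen, read 7.63, 7.78 and 7.86 in LNCaP-abl, against 7.70, 7.66 and 7.61 in LNCaP with siTRIM24, and 7.29, 7.45 and 7.21 in LNCaP-abl, against 8.13, 8.04 and 8.0 in LNCaP with siControl. Its arrays overlapped with siTRIM24 (0.10, adjusted p = 0.251), where they stood apart with siControl (-0.74), and the change of 0.84 ± 0.11 passed (adjusted p = 3.98e-05). After quantile normalization FOLH1 was called with siTRIM24, at 0.23 (adjusted p = 0.0112).

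Nuclear receptor cofactors and pioneer factors differed by less than 1 log2 unit, apart from NR3C1. Of 17 tested members 5 were higher and 9 lower with siTRIM24, where 29.6% of all tested genes were higher and 40.2% lower. FOXA1, a factor that opens chromatin for nuclear receptors, read 10.75, 10.79 and 10.80 in LNCaP-abl, against 11.10, 11.11 and 11.10 in LNCaP (-0.33, and -0.52 with its most variable probe set), and HOXB13, a homeobox factor of prostate, was at -0.37. NFIB, a partner of FOXA1, was at -0.86 with siTRIM24 and -0.27 with siControl (-0.55 with siTRIM24 as the mean of its probe sets), and the histone demethylase KDM1A at -0.84 and -0.57. The coactivator NCOA2 was at 0.82 and 0.70, and GRHL2, an epithelial factor, at 0.46 and 0.30. Enzymes of steroid metabolism were lower for 10 and higher for 6 of 18 tested members. AKR1C3, which makes testosterone from a weaker androgen, read 6.03, 5.49 and 5.51 in LNCaP-abl, against 7.76, 7.74 and 7.79 in LNCaP (-2.08), and AKR1C1, a near-identical relative whose probes may bind AKR1C3 transcripts too, was at -1.94 (-0.70 as the mean of its probe sets). SRD5A1, the 5-alpha reductase that makes dihydrotestosterone, was at -1.41 with siTRIM24 and -1.23 with siControl. HSD17B6, which oxidises an androgen metabolite back to an active steroid, was at 1.19 and 1.12.

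Epithelial identity was kept in both lines, with luminal keratins somewhat lower in LNCaP-abl. Of 18 tested luminal and prostate identity genes 12 were lower and 5 higher with siTRIM24. KRT8 read 9.76, 9.73 and 9.68 in LNCaP-abl, against 10.47, 10.42 and 10.49 in LNCaP, and KRT18, its partner keratin, was at -0.51. The tight junction protein CLDN3 was at -2.34 with siTRIM24 and -1.83 with siControl, and CD24, a surface sialoglycoprotein, at -2.27 and -2.50. CDH1, which encodes E-cadherin, was bright in both lines and not called (0.06, adjusted p = 0.226), although its most variable probe set was at 0.28 (adjusted p = 0.00157). Of 16 tested genes of the epithelial-mesenchymal switch 9 were lower and 4 higher. VIM, the intermediate filament vimentin, read 6.05, 5.94 and 6.20 in LNCaP-abl, against 10.64, 10.64 and 10.74 in LNCaP (-4.61). TWIST1, a mesenchymal transcription factor, was at -4.93 and FN1, fibronectin, at -3.01, while the means of their probe sets put VIM at -2.35 and FN1 at -2.00. VIM and FN1 also stand in a list of 8 fibroblast markers, of which 6 lay above the filter in LNCaP-abl and 5 in LNCaP, with a mean level of 6.57 to 6.71 on the LNCaP-abl arrays and 7.29 to 7.33 on the LNCaP arrays. Of its 6 tested members 2 were higher and 2 lower. The higher ones, ACTA2 and COL3A1, averaged 7.56 and 6.23 in LNCaP-abl, against 6.68 and 5.29 in LNCaP. The part of fibroblasts was not tested, and the defining marker COL1A1 averaged 7.35 in LNCaP-abl and 7.40 in LNCaP and DCN 5.97 and 5.95. Of 8 tested neuroendocrine and neuronal genes 2 were higher and 1 lower in LNCaP-abl. SYP, synaptophysin, was not called (-0.08, adjusted p = 0.505), CHGA and INSM1 averaged under the filter in both lines, ENO2 was at 0.44, NCAM1 at 0.76 (3.23 with its most variable probe set) and TUBB3, a neuronal tubulin that carcinoma lines also express, at -0.99.

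Guidance and adhesion genes were divided, with some of the widest gaps of all. Of 31 tested members of a list of 50, 12 were higher and 12 lower with siTRIM24. Besides FLRT3, SEMA3C, EPHA7 and EFNB2, the ephrin receptor EPHA3 read 2.90, 2.74 and 3.17 in LNCaP-abl, against 8.10, 8.08 and 8.09 in LNCaP (-5.15). The semaphorin SEMA6D was at -4.38, and -1.71 as the mean of its probe sets, and the Slit receptor ROBO1 at -4.03. Basement membrane genes were lower for 9 and higher for 2 of 18 tested laminins, integrins and matrix receptors with siTRIM24. With siControl 14 were lower and 1 higher, and the called changes were 5 upward and 0 downward. With siTRIM24 LAMB2, a laminin chain, read 5.15, 4.89 and 5.04 in LNCaP-abl, against 9.28, 9.20 and 9.34 in LNCaP (-4.24). LAMA5, another chain, was at -1.47, and ITGA2, a collagen-binding integrin, at -2.72. COL4A2, a collagen IV chain of the same membranes, was at 0.80. Of 7 tested basal cell genes 3 were higher and 3 lower, and the higher ones included ITGA6, a laminin-binding integrin, at 1.16 and DST, a linker of keratin to such adhesions, at 1.04.

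Of 24 tested growth factor receptors and ligands 10 were higher and 9 lower with siTRIM24, where 29.6% of all tested genes were higher and 40.2% lower. Of their called changes 10 were upward and 1 downward, against 8.6% and 19.9% of all tested genes. EGF, a ligand of the EGF receptor, read 10.11, 10.10 and 10.07 in LNCaP-abl, against 6.74, 6.54 and 6.72 in LNCaP, a difference of 3.43 ± 0.09, close to the 3.44 with siControl (change -0.01, 95% interval -0.29 to 0.27). BTC, betacellulin, a further ligand of that receptor, was at 2.71 with siTRIM24 and 2.83 with siControl, and the receptor FGFR2 at 2.92 and 2.86. GDF15, a stress-induced cytokine, read 10.30, 10.07 and 10.09 in LNCaP-abl, against 12.96, 12.96 and 12.94 in LNCaP (-2.80, and -1.08 as the mean of its probe sets). WNT5A, a ligand of noncanonical WNT signalling, read 13.14, 13.12 and 13.11 in LNCaP-abl, against 8.09, 8.03 and 8.11 in LNCaP, a difference of 5.05 ± 0.07 with siTRIM24 and 5.18 with siControl. The WNT transcription factors TCF7L2 and LEF1 were at 0.89 and 0.75 (LEF1 0.35 as the mean of its probe sets), and 9 of 21 tested WNT genes were higher and 5 lower. In the TGF-beta and BMP list, 6 of 24 were higher and 10 lower. BMP2 stood at 6.27, while BMPR1B, a type I receptor for such ligands, read 3.89, 3.97 and 3.81 in LNCaP-abl, against 8.34, 8.30 and 8.26 in LNCaP (-4.41, and -2.65 as the mean of its probe sets). INHBB, an activin subunit, was at -2.77.

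Glycolytic and hypoxia-responsive genes were lower in LNCaP-abl, 20 of 28 tested, with 2 higher and a median of -0.22, where 40.2% of all tested genes were lower and 29.6% higher. HK2, the inducible hexokinase, read 6.38, 6.20 and 6.22 in LNCaP-abl, against 9.05, 8.98 and 8.94 in LNCaP with siTRIM24, and the gap of -2.73 ± 0.05 was wider than the -2.17 with siControl (change -0.55, adjusted p = 5.08e-05). Averaged over its probe sets, HK2 was at -1.73. PFKP, a phosphofructokinase, was at -1.83 with siTRIM24 and -1.53 with siControl (-0.84 with siTRIM24 as the mean of its probe sets). Of 30 amino acid response and ER stress genes 17 were higher and 9 lower. SLC7A5, the large neutral amino acid transporter LAT1, read 11.63, 11.40 and 11.51 in LNCaP-abl, against 6.60, 6.79 and 6.61 in LNCaP, a difference of 4.85 ± 0.07 with siTRIM24 and 4.87 with siControl. SLC7A11, the cystine transporter, was at 1.52, the serine synthesis enzyme PHGDH at 0.78 and the ER chaperones DNAJB9 and PDIA4 at 1.01 and 0.92 (0.59 and 0.52 with siControl). SLC1A1, a glutamate transporter, read 5.66, 5.72 and 5.48 in LNCaP-abl, against 10.37, 10.33 and 10.31 in LNCaP (-4.72, and -2.63 as the mean of its probe sets). MYC was at -0.90 with siTRIM24 and -0.68 with siControl, with arrays at 10.90, 10.85 and 10.84 in LNCaP-abl, against 11.70, 11.81 and 11.78 in LNCaP. Of 18 tested MYC-linked ribosome biogenesis genes 12 were lower and 3 higher with siTRIM24, against 40.2% and 29.6% of all tested genes, and 7 were lower and 6 higher with siControl, against 34.6% and 29.1%. The change was downward for 12 of the 18, where 19.9% of all tested genes changed downward, such as FBL, the methyltransferase of ribosomal RNA, at -0.58 with siTRIM24 and -0.22 with siControl.

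Regulators of G1 and of p53 responses differed one by one, with 5 of 17 tested G1 kinases and inhibitors higher and 9 lower. CDK6, a G1 kinase, read 5.48, 5.51 and 5.79 in LNCaP-abl, against 7.50, 7.62 and 7.58 in LNCaP with siTRIM24, and 5.54, 5.69 and 5.55 in LNCaP-abl, against 6.10, 6.31 and 6.36 in LNCaP with siControl. The gap was wider with siTRIM24, where the LNCaP arrays read higher (-1.97 against -0.66 with siControl, change -1.31 ± 0.12), and it was -0.65 with a change of -0.44 as the mean of the probe sets. CDKN2B, the inhibitor p15, was at -1.61, and RB1, the retinoblastoma protein, at -0.83 (CDKN2B -0.74 and RB1 -0.54 as means of their probe sets). Among 20 tested p53 targets 6 were higher and 9 lower, near the 29.6% and 40.2% of all tested genes. FAS, the death receptor, read 11.56, 11.43 and 11.52 in LNCaP-abl, against 8.43, 8.42 and 8.35 in LNCaP (3.10), whereas BAX and PMAIP1, which act at mitochondria in cell death, were at -1.94 and -1.89. In the list of DNA methylation and Polycomb genes 10 of 18 were lower and 3 higher with siTRIM24, and 6 were lower and 9 higher with siControl. EZH2, the Polycomb methyltransferase, was at -0.21 with siTRIM24 and 0.59 with siControl, and DNMT1, the maintenance DNA methyltransferase, at -0.14 and 0.31. Both calls with siTRIM24 were lost after quantile normalization (-0.11, adjusted p = 0.16 for EZH2 and -0.07, adjusted p = 0.195 for DNMT1) and without the first LNCaP-abl array (EZH2 -0.16, adjusted p = 0.101, and DNMT1 -0.11, adjusted p = 0.0507). EZH2 also lost it without the third LNCaP-abl array (-0.20, adjusted p = 0.0599) or the first LNCaP array (-0.17, adjusted p = 0.0988). With the GAPDH covariate EZH2 was not called either (-0.19, adjusted p = 0.128). EED, a core subunit of the same complex as EZH2, was at -1.1 with siTRIM24 and -0.50 with siControl, and SUZ12, a further core subunit, was higher at 0.33 and 0.34.

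Some genes outside the cell cycle also changed by about 1 log2 unit or more. NAALADL2, a glutamate carboxypeptidase-like gene, read 4.33, 4.34 and 4.25 in LNCaP-abl, against 5.24, 5.10 and 5.08 in LNCaP with siTRIM24, and 4.67, 4.77 and 4.54 in LNCaP-abl, against 6.80, 7.34 and 6.90 in LNCaP with siControl. Its gap was -0.83 with siTRIM24 and -2.36 with siControl, with both siTRIM24 means under the filter. PSLNR, a noncoding RNA gene, was not called with siTRIM24 (0.11, adjusted p = 0.255, though 0.26, adjusted p = 0.0255, after quantile normalization) and was at -1.21 with siControl. MAF, a bZIP transcription factor, read 3.93, 4.07 and 3.56 in LNCaP-abl, against 7.79, 7.83 and 7.85 in LNCaP with siTRIM24, a difference of -3.97, against -5.27 with siControl (-1.03 with siTRIM24 as the mean of its probe sets). CXCR4, the receptor of CXCL12, was at -3.14 and -4.08 (change 0.94), though its other probe sets gave -1.03 and -0.88 with siTRIM24. CP, ceruloplasmin, was at -1.1 and -2.11 (-1.86 with siTRIM24 with its most variable probe set) and ADRA1A, an adrenergic receptor, at 4.97 and 4.06 (2.07 with siTRIM24 as the mean of its probe sets). CYP4F30P, a cytochrome pseudogene, was at -1.54 and -2.49, with both lines under the filter.

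In the other direction, APOBEC3B, a cytidine deaminase, read 6.77, 6.88 and 7.0 in LNCaP-abl, against 7.72, 7.53 and 7.52 in LNCaP with siTRIM24, and 8.29, 8.26 and 8.49 in LNCaP-abl, against 7.52, 7.60 and 7.14 in LNCaP with siControl. The LNCaP-abl arrays lay on the lower side with siTRIM24 and on the upper side with siControl, with differences of -0.70 and 0.93 and a change of -1.63 ± 0.15 (SE, adjusted p = 1.94e-06). MASTL, the Greatwall kinase of mitotic entry, was at -0.71 with siTRIM24 and 0.62 with siControl. FRY, a scaffold of mitotic kinases, read 6.86, 6.91 and 6.91 in LNCaP-abl, against 8.21, 8.15 and 8.20 in LNCaP with siTRIM24 (-1.29), where with siControl the arrays overlapped (-0.02, adjusted p = 0.821). ELAVL2, a neuronal RNA-binding protein, was at -0.84 with siTRIM24 and 0.10 (adjusted p = 0.337) with siControl.

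Line differences were uneven across chromosomes. The median line difference with siTRIM24 was -0.47 over 183 tested genes of chromosome 18, where 69.9% were lower in LNCaP-abl, -0.37 over 221 genes of chromosome 13 (63.3% lower) and -0.29 over 560 genes of chromosome 9 (60.0% lower), against 40.2% lower over all tested genes. With siControl the medians were -0.36, -0.22 and -0.25. The medians of the other autosomes and the X chromosome lay between -0.08 on chromosome 19 and 0.09 on chromosome 6, where 43.7% of genes were higher. DSC3 lies on chromosome 18, EFNB2, ABCC4, RB1 and RFC3 on chromosome 13 and SLC1A1, CDKN2B, RIGI and NFIB on chromosome 9. DNA copy number was not measured, and its part in these medians was not tested.

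**Figure D5:**
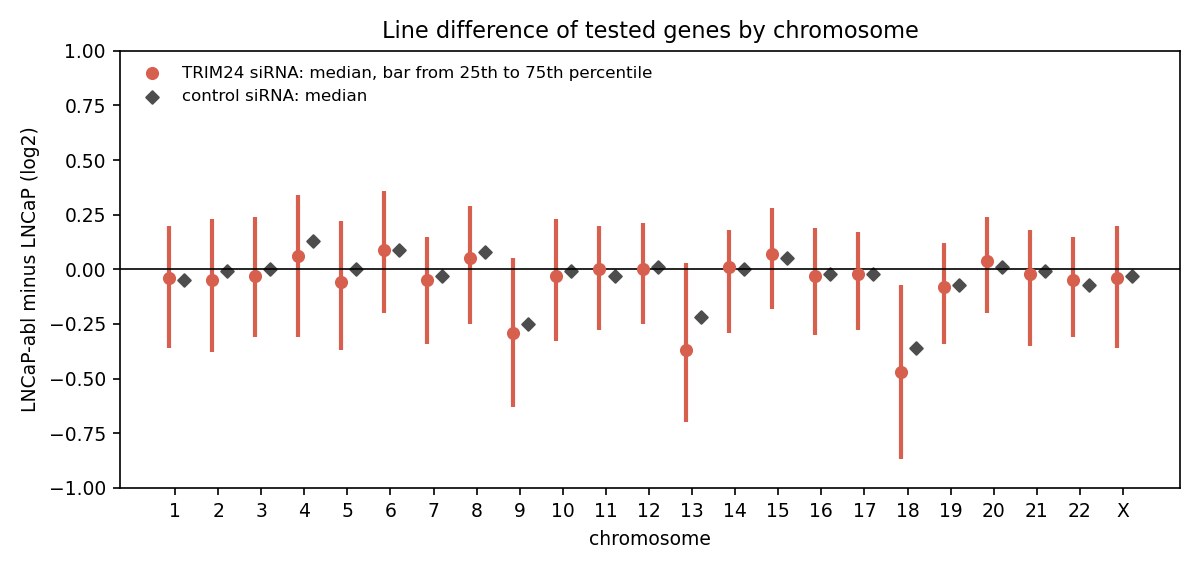
Median line difference (LNCaP-abl minus LNCaP, log2) of the tested genes of each chromosome with TRIM24 siRNA (circles, with bars from the 25th to the 75th percentile of genes) and with control siRNA (diamonds). Chromosomes 18, 13 and 9 lie lowest, at -0.47, -0.37 and -0.29 with TRIM24 siRNA, and their diamonds lie low as well.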

How the data were processed

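The deposited values are log2 expression values of single Affymetrix probe sets, and the submitters' processing notes name RMA as the tool that made them; the RMA version is not given in the sources used here. Of 54675 probe sets, 41097 named 1 gene in the platform annotation, with symbols updated through RefSeq, 1801 named several and 11777 none. Each gene was represented by its probe set with the highest mean over 18 arrays, and 13607 of 19775 genes passed a filter that asked for a third-highest value of at least 5.88, the median of the table. A group-means model over all 18 arrays (limma 3.58.1, R 4.3.3) left 12 residual degrees of freedom. Adjusted p-values are limma's moderated, two-sided values with Benjamini-Hochberg adjustment over the genes tested, called under 0.05. Its 3 contrasts were the line difference with siTRIM24, that with siControl and the change between them. The model was tested on simulated data.

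The members and gene lists were chosen with earlier results of these data known, and list counts carry no test. Named genes were TRIM24, the 12 largest differences in each direction with arrays that did not overlap, up to 5 genes per list by adjusted p, the 8 largest changes in each direction and the 6 largest differences in each direction without a called change. Other list members named were chosen after their values were seen. Promoter windows came from RefSeq. Alternatives covered the filter, the probe set, scaling, the arrays fitted, variance model, array weights, the replicate number as a block, a GAPDH covariate, the threshold and each array left out. Same-numbered arrays did not deviate together (correlations of 0.04, 0.02 and -0.04 with siTRIM24), so the numbers were not taken as pairs. Some genes were not analysed here.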

Additional observations from a re-analysis of the deposited data

Results flagged for a closer look

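The difference between the lines changed with TRIM24 knockdown for 3884 of 13607 genes, by the interaction term of line and knockdown in limma. The values below are changes, the line difference with siTRIM24 minus that with siControl, on the log2 scale, and each had an adjusted p under 0.05. Among genes of DNA replication the change was -2.19 for MCM10, -2.01 for DTL, -1.73 for RRM2, -1.39 for MCM5, -1.26 for MCM4 and -1.19 for RFC3. Among genes of mitosis and cytokinesis it was -2.09 for SHCBP1, -1.96 for SPC25, -1.80 for CEP55, -1.75 for KIF14, -1.75 for TOP2A, -1.47 for UBE2C, -1.33 for MASTL and -1.28 for CDK1. Further downward changes were -2.13 for ZNF367, -2.03 for DEPDC1B, -1.63 for the deaminase APOBEC3B, -1.31 for the G1 kinase CDK6, -1.27 for FRY, -1.19 for the prostaglandin receptor PTGER4 and -0.95 for the interferon-stimulated gene HERC5. Upward changes were 1.52 for NAALADL2, 1.33 for PSLNR, 1.30 for MAF, 1.01 for CP, 0.95 for CYP4F30P, 0.94 for CXCR4, 0.91 for ADRA1A, 0.87 for FLRT3 and 0.84 for FOLH1. With siTRIM24 the means of MCM10, ZNF367, DEPDC1B, CEP55, KIF14, NAALADL2 and CYP4F30P lay under the filter of 5.88 in both lines, as did those of SPC25, and those of DTL and SHCBP1 did so in LNCaP. Those of CP, CXCR4, MAF and CDK6 did so in LNCaP-abl, and those of FLRT3 did so in LNCaP. Values there are compressed, so the sizes of these changes are uncertain. With the mean of each gene's probe sets the change was smaller but in the same direction for MAF (0.59), CP (0.53), ADRA1A (0.54), FLRT3 (0.33), RFC3 (-0.66), PTGER4 (-0.42), CDK6 (-0.44) and MCM4 (-0.79). The other bright probe set of FLRT3 changed by -0.21, against the direction given above, and that of MCM5 by -0.56. The further bright probe sets of MCM4 changed by -1.23 to 0.11. CP changed by 0.39 with its most variable probe set and CXCR4 by 0.55 after quantile normalization.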

How the results depend on the processing

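At an adjusted p under 0.01 the change with knockdown was called for 2216 genes, 1606 downward. With a difference of at least 1 log2 unit also required, 1308 genes differed with siTRIM24 (516 higher, 792 lower), 1348 with siControl, 1073 in the same direction with both, and 109 changed, 105 downward; 8 mitosis genes were higher, 2 replication genes were higher and 1 lower, and 13 changed downward. With each probe set tested alone, 16801 differed with siTRIM24 (7149 higher, 9652 lower), 15349 with siControl, 12351 in the same direction with both, and 5933 changed, 4145 downward. With the GAPDH covariate 7 replication genes were lower. KLK2 was at -0.26, but at 0.02 when its probe sets were averaged.

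With single arrays left out, 8905 to 9593 genes differed with siTRIM24 (3715 to 4062 higher, 5178 to 5531 lower, 41.3 to 42.6% of calls higher), 8170 to 8695 with siControl and 6729 to 6978 in the same direction, and 3170 to 3901 changed, 2200 to 2734 downward. Of mitosis genes 32 to 36 were higher and 37 changed downward, of replication genes 12 to 17 were higher, 9 to 11 lower and 29 to 31 changed downward, and 31 to 32 interferon genes were lower. The replicate number as a block gave 9433 calls with siTRIM24 and 3700 changes, and of 175 named genes called, TOP2A lost its call. With the GAPDH covariate 8293 genes were called with siTRIM24, and 7 of the 175 named genes lost their call. After quantile normalization 5 of the 175 lost it, and 5 did so without the first LNCaP-abl siTRIM24 array. Of called genes 42.4% were higher in LNCaP-abl, 35.1% after median centring and 49.2% after quantile normalization. Over the other settings the named genes' line differences kept their side of the threshold in 2360 of 2399 comparisons. This count includes comparisons called in neither setting even where the sign differed. Their changes kept direction and call in all 385. The mean of probe sets moved 45 of 168 named genes called by over 1.5 times. That mean takes in every probe set of a gene, including those under the filter, where differences are compressed. Genes near the low-value filter have compressed differences, and 3 arrays per group limit the rest; the causes of these shifts were not tested.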

Other observations

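Of 17 tested Notch genes 7 were higher and 8 lower in LNCaP-abl when TRIM24 was low, where 29.6% of all tested genes were higher and 40.2% lower. The ligand DLL1 read 6.45, 6.21 and 6.44 in LNCaP-abl, against 8.34, 8.28 and 8.27 in LNCaP (-1.93), though another of its probe sets was at 0.40 and their mean at -0.76. The Notch-responsive repressors HES1 and HES4 were at -1.43 and -1.75, and HES6, which opposes HES1, at 0.85. The gap of HES1 was wider than with siControl (-0.81, change -0.62). In cholesterol and fatty acid synthesis 9 of 20 were higher and 6 lower. SCD, the desaturase that makes monounsaturated fatty acids, read 13.04, 13.08 and 13.03 in LNCaP-abl, against 12.19, 12.25 and 12.23 in LNCaP with siTRIM24, a difference of 0.83, against 0.23 with siControl. ELOVL6, a fatty acid elongase, was at 1.44, INSIG1, a brake on sterol synthesis, at 0.97 and the isoprenoid enzyme FDPS at -0.46.

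X-linked cancer-testis antigens were higher for 6 and lower for 3 of 11 tested members, against the same 29.6% and 40.2% of all tested genes. CTAG2 read 11.62, 11.47 and 11.51 in LNCaP-abl, against 7.68, 7.70 and 7.75 in LNCaP, a difference of 3.82 with siTRIM24 and 3.62 with siControl. MAGEA4 was at 1.65 and MAGEC2 at -2.20, the second at -0.95 as the mean of its probe sets. Drug and lipid transporters were higher for 5 and lower for 8 of 14. The drug exporter ABCG2 read 6.89, 6.83 and 6.85 in LNCaP-abl, against 9.92, 9.84 and 9.83 in LNCaP (-3.00), and the cholesterol exporter ABCA1 was at 1.73 (1.09 as the mean of its probe sets). Of 16 amino acid transporters 7 were higher and 5 lower, and of 3 tested leukocyte and endothelial markers 1 was higher and 0 lower.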
